A study of Mus musculus with 43 samples.

Results

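Rab proteins are small GTPases that act as molecular switches on the membranes of the cell. Bound to GTP they recruit effectors that move, tether and fuse vesicles, and each Rab marks its own compartments, so the family as a whole maps the routes of secretion, endocytosis, recycling and lysosomal delivery. Developing red cells depend on these routes, because the transferrin receptor carries iron through early and recycling endosomes. Binding of EKLF at the genes of this family was examined in fetal liver from mouse embryos. EKLF, the product of Klf1, is an erythroid zinc-finger transcription factor that recognises CACCC-type and related GC-rich sites, and the Nan allele changes a zinc finger of that factor.

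The members were all protein-coding genes whose symbol in the RefSeq table of GRCm38.p6, the assembly behind mm10, is Rab followed by a number and an optional letter. This gave 59 of 21523 protein-coding genes, and genes for Rab-interacting proteins were not counted. EKLF was mapped by chromatin immunoprecipitation and sequencing (ChIP-seq) with the antibody 7B2a in crosslinked fetal liver cells of E13.5 embryos. The groups were embryos heterozygous for the Nan allele (Nan/+), which retain 1 normal Klf1 allele, and wild-type (WT) embryos of the Nan strain, littermates per the series design. The labels call the cells primary erythroid, but the protocol describes dispersal of whole livers and no sort, and with positions alone this label was not checked against markers. The 3 ChIP libraries of a genotype had been combined by the authors into a common set of calls, which holds 15564 regions for Nan/+ and 9181 for WT. Depth per ChIP library ran from 72.0 to 101 M tags in Nan/+ and from 74.1 to 103 M tags in WT (M, mega). The lists give positions without a strength and without values per replicate, so no difference between the genotypes has a replicate check and none was tested. The intervals below are exact binomial (Clopper-Pearson) 95% intervals and cover counting error only.

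Most Rab genes lay near EKLF in at least 1 genotype. A region was assigned to a gene when its centre lay in the gene body or within 10 kb of either end. By that rule 35 of the 59 Rab genes had a region in Nan/+ and 32 had a region in WT. The Nan/+ share was 59.3% (45.7 to 71.9), beside 37.5% of all protein-coding genes. The WT share was 54.2% (40.8 to 67.3), beside 33.5% of all protein-coding genes. Regions in both lists occurred at 25 Rab genes, or 42.4% (29.6 to 55.9), beside 23.5% of all genes. The shares for genes with regions in 1 list alone were nearer to the background. In Nan/+ alone 10 Rab genes had regions, 16.9% (8.44 to 29.0) beside 14.1% of all genes. In WT alone 7 had regions, 11.9% (4.91 to 22.9) beside 10.1% of all genes. A further 17 Rab genes had a region in neither list, 28.8% (17.8 to 42.1) beside 52.5% of other protein-coding genes.

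Long genes collect more regions, so the Rab genes were also set beside other protein-coding genes whose length lay within 20% of each Rab gene. Median gene length was 23.2 kb in the Rab family and 17.3 kb among the rest. Among other genes of like length 41.2% had a Nan/+ region, which corresponds to 24.3 genes in a group of 59, where 35 Rab genes had one. In WT the share of genes of like length was 37.5%, or 22.1 genes, where 32 Rab genes had one. For regions in both lists the values were 26.3%, or 15.5 genes, where 25 Rab genes had them. The share of Rab genes thus lay 18.1 percentage points above genes of like length in Nan/+ and 16.7 points above in WT. For each measure the share of genes of like length fell below the interval of the Rab share.

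**Figure D1:**
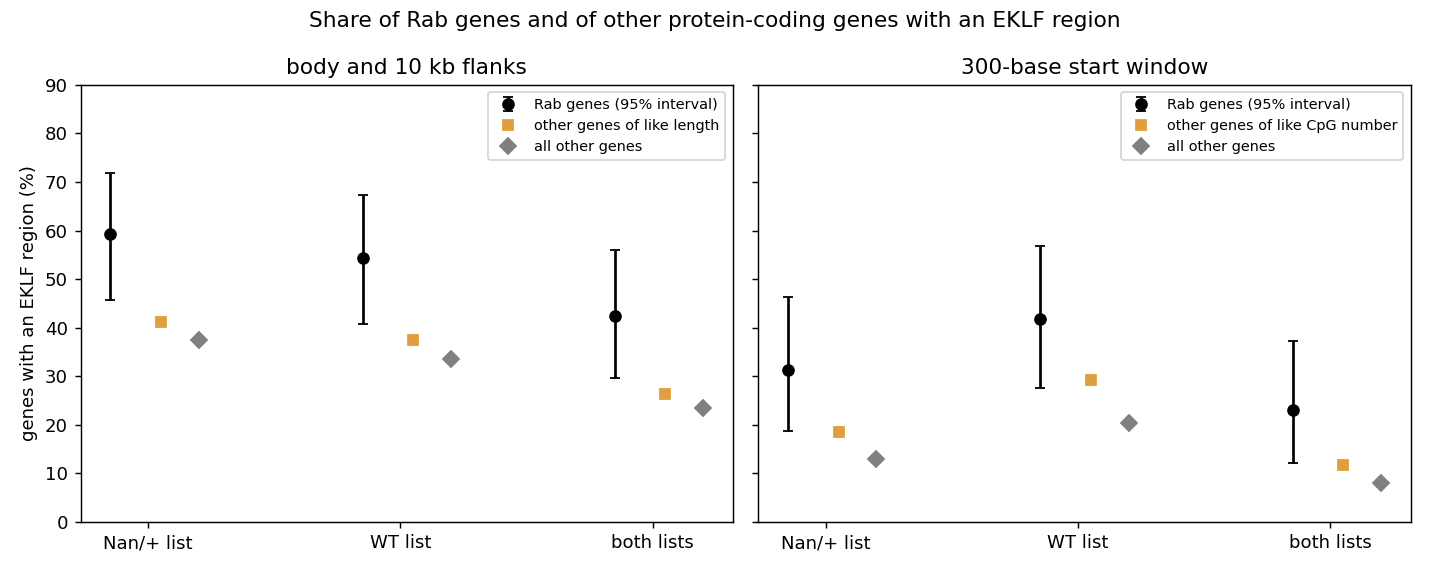
Share of genes with an EKLF region (percent) in the Nan/+ list, the WT list and both, for Rab genes (black, with 95% exact binomial intervals), other genes of like length or like CpG number (orange) and all other genes (grey). Rab shares are 59.3%, 54.2% and 42.4% for the body and 10 kb flanks (left) and 31.2%, 41.7% and 22.9% for the 300-base start window (right), each above both kinds of other genes.

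Gene starts were examined separately. RefSeq start windows, each from 250 bases before to 50 bases after a gene start, were listed for 48 of the 59 Rab genes. The other 11 genes were Rab2a, Rab4a, Rab7b, Rab18, Rab26, Rab27b, Rab30, Rab36, Rab37, Rab38 and Rab44. A region overlapped the start window of 15 Rab genes in Nan/+, or 31.2% (18.7 to 46.3), beside 13.0% of the 17274 protein-coding genes with a window. In WT it overlapped that of 20 Rab genes, or 41.7% (27.6 to 56.8), beside 20.4%. The windows of 11 Rab genes lay under regions of both lists, 22.9% beside 8.05% of all genes. The genes were Rab1b, Rab3d, Rab5a, Rab6a, Rab8b, Rab9, Rab22a, Rab33b, Rab35, Rab40c and Rab43. In Nan/+ alone the windows of 4 genes were covered, those of Rab1a, Rab2b, Rab13 and Rab21, which is 8.33% (2.32 to 20.0) beside 4.97% of all genes. In WT alone the windows of 9 genes were covered, those of Rab4b, Rab5c, Rab8a, Rab10, Rab11a, Rab11b, Rab14, Rab28 and Rab40b, which is 18.8% (8.95 to 32.6) beside 12.4%. Rab start windows held a median of 15 CpG in the 250 bases before the start, against 10 over all windows. Among other genes whose window held a number of CpG within 3 of the Rab gene's, 18.5% lay under a Nan/+ region, 29.1% under a WT region and 11.6% under both, each below the Rab share. For windows under 1 list alone the Rab shares were near those of genes of like CpG number, which were 6.87% for Nan/+ alone and 17.5% for WT alone, both inside the Rab intervals. The WT share of genes of like CpG number lay inside the interval of the Rab share, and the shares under Nan/+ and under both lists lay just below theirs.

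**Figure D2:**
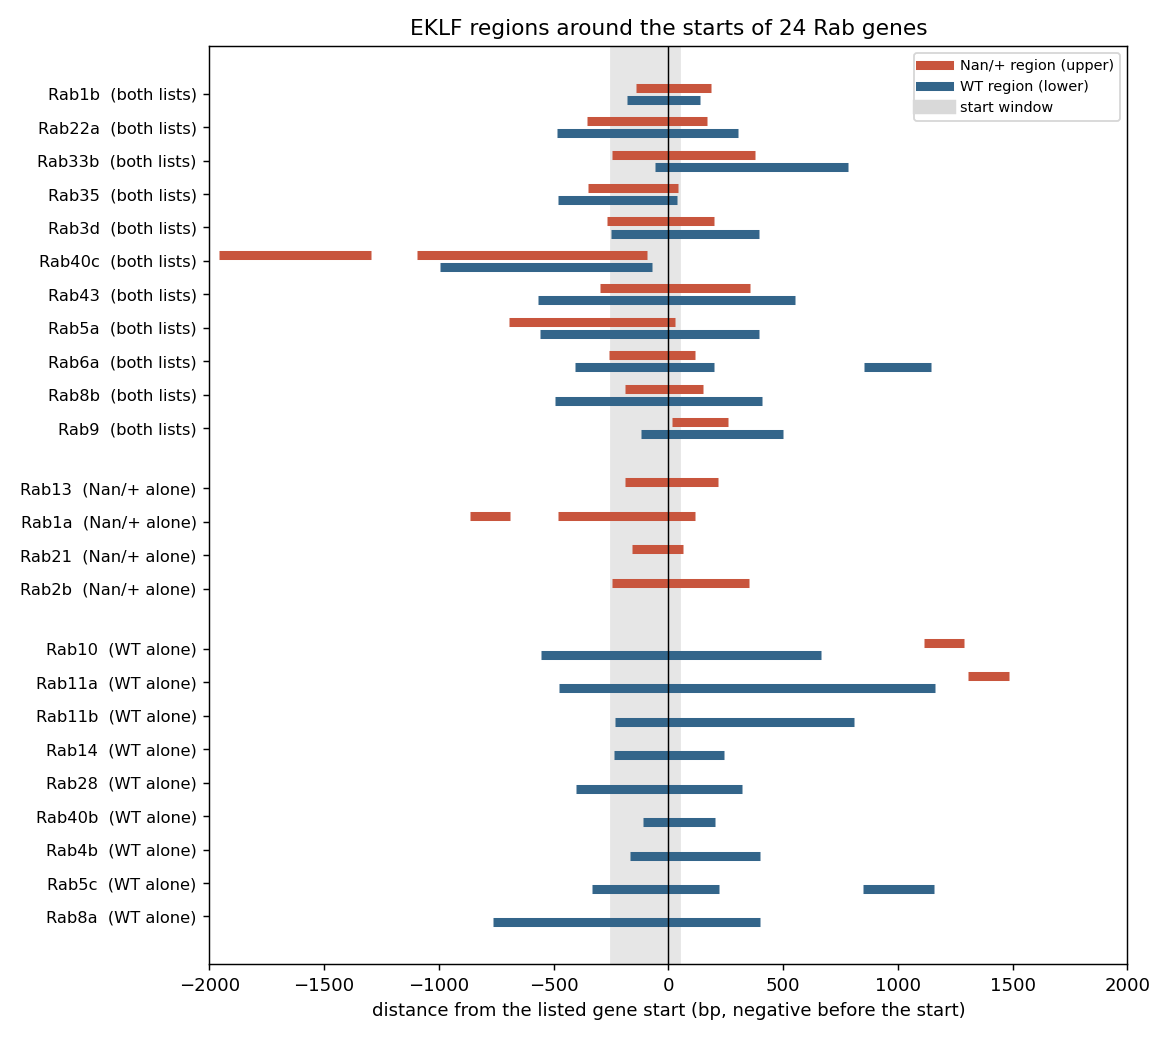
Extent of EKLF regions around the listed starts of 24 Rab genes, in bp along the direction of transcription, with Nan/+ regions (upper, red) and WT regions (lower, blue) and the start window in grey. In 11 genes regions of both lists cover the window, in 4 a Nan/+ region alone and in 9 a WT region alone.

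The 250 bases before the start are printed for the genes with the widest regions over their windows, 2 under both lists, 2 under WT alone and 1 under Nan/+ alone, to show the sequence beneath each kind of call. Capitals mark each match to CCNCNCCC on either strand, a pattern that takes in the EKLF consensus. Sequences are from RefSeq, build GRCm38.p6, and run 5′ to 3′ along the gene's strand. The stretches lie at chr6:87812165-87812414 for Rab43, chr17:25919715-25919964 for Rab40c, chr9:64737757-64738006 for Rab11a and chr12:3309970-3310219 for Rab10, all on the minus strand. That of Rab1a lies at chr11:20201162-20201411 on the plus strand.
Rab43, both lists: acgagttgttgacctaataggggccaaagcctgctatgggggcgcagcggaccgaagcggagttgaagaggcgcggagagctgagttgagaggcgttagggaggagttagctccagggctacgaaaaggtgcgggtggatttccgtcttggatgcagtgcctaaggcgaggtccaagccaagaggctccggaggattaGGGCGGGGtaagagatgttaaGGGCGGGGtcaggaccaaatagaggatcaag
Rab40c, both lists: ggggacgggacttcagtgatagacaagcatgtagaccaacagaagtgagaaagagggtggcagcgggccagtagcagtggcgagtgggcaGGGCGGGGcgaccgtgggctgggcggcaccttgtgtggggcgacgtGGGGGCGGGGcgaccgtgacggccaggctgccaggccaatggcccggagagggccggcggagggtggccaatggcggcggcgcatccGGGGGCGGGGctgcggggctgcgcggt
Rab11a, WT alone: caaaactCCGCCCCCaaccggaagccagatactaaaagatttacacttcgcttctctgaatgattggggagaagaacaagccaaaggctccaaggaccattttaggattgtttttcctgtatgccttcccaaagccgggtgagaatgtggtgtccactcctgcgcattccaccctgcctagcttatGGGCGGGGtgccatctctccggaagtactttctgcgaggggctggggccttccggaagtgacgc
Rab10, WT alone: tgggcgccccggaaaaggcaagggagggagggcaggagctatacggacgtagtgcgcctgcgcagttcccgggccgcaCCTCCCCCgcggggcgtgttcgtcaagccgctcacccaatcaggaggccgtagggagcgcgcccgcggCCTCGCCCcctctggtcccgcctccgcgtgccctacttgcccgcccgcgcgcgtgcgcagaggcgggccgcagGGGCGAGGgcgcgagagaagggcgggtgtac
Rab1a, Nan/+ alone: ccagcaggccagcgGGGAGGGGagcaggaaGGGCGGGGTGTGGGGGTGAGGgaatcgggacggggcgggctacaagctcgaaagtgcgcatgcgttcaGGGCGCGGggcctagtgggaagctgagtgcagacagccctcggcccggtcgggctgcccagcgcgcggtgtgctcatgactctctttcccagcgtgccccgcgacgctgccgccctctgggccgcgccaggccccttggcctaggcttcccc
The Rab1a stretch, under a Nan/+ region alone, held 5 matches, some overlapping, and 1 match to CCACACCC. The stretches under both lists held 2 matches at Rab43 and 5 at Rab40c, and those under WT alone held 2 at Rab11a and 3 at Rab10.

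The same pattern was searched in the 250 bases before the start in all windows, on both strands, together with CCACACCC, CACCC and GATAA, the last a core of GATA factor sites. CCNCNCCC includes CCACACCC, and CCACACCC contains CACCC. CCNCNCCC was present in 37 of 60 Rab windows, or 61.7%, against 53.4% of all 21045 windows. Some genes have several windows, and windows of Rab43 overlap each other. By class the pattern was in 11 of 13 Rab windows under both lists, against 74.3% of all windows of that class. It was in 2 of 4 Rab windows under Nan/+ alone, against 68.1%, and in 7 of 9 under WT alone, against 70.1%. It was in 17 of 34 Rab windows under neither list, against 47.9%. CCACACCC was in 3 Rab windows, those of Rab1a, Rab3d and Rab8a, or 5.00% against 3.34% of all windows. CACCC was in 41 Rab windows, 68.3% against 54.4%, and GATAA in 12, 20.0% against 20.5%. Within the classes, CACCC was in 9 of 13 Rab windows under both lists and 3 of 4 under Nan/+ alone. It was in 5 of 9 under WT alone and 24 of 34 under neither list. Over all windows of these classes the CACCC shares were 57.8%, 54.0%, 57.9% and 53.5%. Windows of all genes under both lists held a median of 20 CpG and those under neither list 6, so composition moves with coverage, and its part in the motif shares was not tested.

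By the 10 kb rule, genes of early secretion formed the most covered role group in Nan/+, while in WT recycling endosome genes had the higher share. The counts of each role group stand beside 37.5% of all protein-coding genes in Nan/+ and 33.5% in WT. They were not set beside genes of like length, and the ranking was not tested. Of 12 Rab genes that act between the endoplasmic reticulum (ER) and the Golgi or within the Golgi, 11 had a region in Nan/+ and 8 in WT, and Rab6b alone had none. Here 8 genes had regions in both lists, 3 in Nan/+ alone and 0 in WT alone. At Rab6a, Rab19 and Rab33a no Nan/+ region had the Rab gene as its nearest gene, so the ranking depends on the 10 kb rule. Of the 9 with a start window, 4 were covered in both lists, 2 in Nan/+ alone and 0 in WT alone. Over all genes with a window these shares were 8.05%, 4.97% and 12.4%. Rab1a and Rab1b, which direct ER to Golgi transport, differed. At Rab1a (chr11:20201412-20226856) the Nan/+ list had 3 regions, 1 of them 599 bp wide with its centre 181 bp before the start, and the WT list had 0. At Rab1b (chr19:5099207-5106996) a Nan/+ region of 329 bp and a WT region of 319 bp overlapped by 282 bp at the start. Rab2a and Rab2b, which also act in early secretory traffic, differed too, although each had regions in both lists. Rab2a (chr4:8535469-8607702) had regions of 537 bp in Nan/+ and 539 bp in WT that overlapped by 478 bp at the lower-coordinate end of the gene. At the start of Rab2b (chr14:52261759-52279395) lay a Nan/+ region of 598 bp and no WT region. Its 1 WT region, of 668 bp, lay in the flank and nearer to Chd8.

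Among the other Golgi members, Rab6a, which serves retrograde traffic, had 2 Nan/+ and 4 WT regions with 1 shared at its start (chr7:100607575-100641268), which lies closer to the end of Mrpl48 than to its own by centre. Rab30 had 1 Nan/+ region, of the minimum width of 176 bp, and 4 WT regions, 1 of them shared (chr7:92741637-92844535). Rab33b, known for its part in Golgi traffic and autophagosome formation, had 2 in each list, and regions of 626 bp in Nan/+ and 841 bp in WT overlapped at its start. Rab43 also had 2 in each list, with start regions of 656 bp in Nan/+ and 1122 bp in WT. Rab18, a Rab of the ER and lipid droplets, had 2 in each list and 1 shared region at a gene end. Rab19 and Rab33a had 1 Nan/+ region each, of 176 bp, and 0 in WT. The region lay nearer to Mkrn1 at Rab19 and nearer to Aifm1 at Rab33a.

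The start windows of recycling endosome genes were covered more often in WT alone than in Nan/+ alone, as were those of all genes. The group returns receptors such as the transferrin receptor to the cell surface, and 6 of its 9 genes had a region in Nan/+ and 7 in WT. Of the 8 with a start window, 4 were covered in WT alone, 1 in both lists and 0 in Nan/+ alone. Over all genes with a window these shares were 12.4%, 8.05% and 4.97%. The difference in split between this group and the ER to Golgi group rests on few genes and was not tested. Rab11a, the central Rab of slow recycling (chr9:64715300-64737756), had 4 Nan/+ regions, the widest 280 bp and none at the start, against 1 WT region of 1639 bp over the start, the widest at any Rab gene. Its paralogue Rab11b (chr17:33742484-33760486) had 0 Nan/+ regions and 1 WT region of 1040 bp over the start. Rab4b, of the fast recycling route, had a WT region of 570 bp over its start and 1 Nan/+ region near Egln2 in the flank, whereas Rab4a had 2 Nan/+ regions and 0 in WT. Of those at Rab4a, 1 of 176 bp lay in the flank and nearer to Ccsap. Rab14 had 2 Nan/+ regions of 176 bp away from its start and a WT region of 481 bp centred 4 bp from the start. Rab35, which acts in endocytic recycling (chr5:115631904-115647158), was the exception, with a shared start region of 389 bp in Nan/+ and 517 bp in WT, and 1 Nan/+ against 4 WT regions in all. It was the nearest gene for 2 of those 4 WT regions, and the others lay nearer to Gcn1 and Bicdl1. Rab15 had 0 Nan/+ regions and 1 WT region of 431 bp beyond its far end. The 4 Nan/+ and 3 WT regions counted for Rab25, an epithelial member, all lay in its flanks and nearer to Mex3a, Lamtor2 or Ubqln4.

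**Figure D3:**
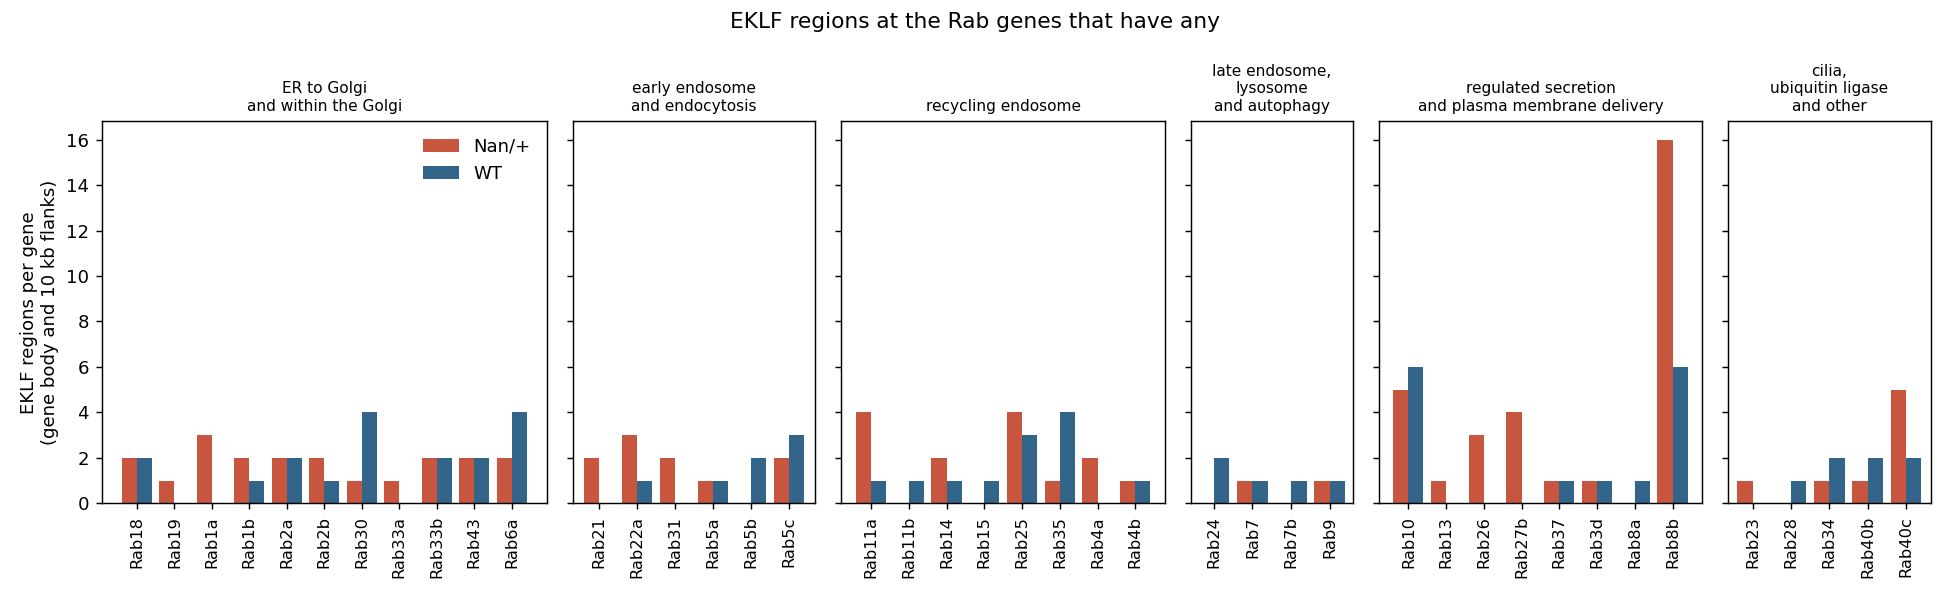
EKLF regions per gene (count, gene body and 10 kb flanks) at the 42 Rab genes with any, grouped by role, with Nan/+ bars left of WT bars. Rab8b stands highest at 16 in Nan/+ and 6 in WT, and every other gene has at most 5 in Nan/+ and at most 6 in WT.

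Early endosome genes had regions at 5 of 7 in Nan/+ and 4 of 7 in WT. The Rab5 paralogues, which control entry into and fusion of early endosomes, each showed another pattern. Rab5a (chr17:53479234-53507678) had 1 region per list, 723 bp in Nan/+ and 954 bp in WT, overlapping by 585 bp at the start. Rab5c (chr11:100715003-100738215) had a WT region of 554 bp over its start, and of its 2 Nan/+ regions and 3 WT regions none was shared. Rab5b had 0 Nan/+ regions and 2 WT regions, both in its flanks and nearer to Suox and Pmel. Rab22a, of early and recycling endosomes, had a shared start region of 525 bp in Nan/+ and 791 bp in WT, and a further 2 Nan/+ regions inside the gene. Rab21, an integrin-associated Rab, had 2 Nan/+ regions and 0 in WT. The wider, of 224 bp, was centred 48 bp before a listed start and 1780 bp inside the gene's outer end. Rab31 had 2 Nan/+ regions inside the gene and 0 in WT. Rab20 had none.

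Late endosomal, lysosomal and autophagy genes had regions at 2 of 9 in Nan/+ and 4 of 9 in WT. Rab7, the principal late endosome Rab (chr6:87999106-88045270), had 1 region per list, 226 bp in Nan/+ and 191 bp in WT, at different positions inside the gene, and no region at either of its listed starts. Rab9, which returns receptors to the trans-Golgi, had a shared region at its start on chromosome X, 243 bp in Nan/+ and 620 bp in WT. The regions counted for Rab24 and Rab7b, 2 and 1 in WT with 0 in Nan/+, lay in the flanks, nearest to Mxd3 and Ctse. The lysosome-related organelle genes Rab29, Rab32 and Rab38, known from melanosome biogenesis and lysosomal stress, had 0 regions in either list.

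In the group of regulated secretion and delivery to the plasma membrane, 7 of 13 genes had a region in Nan/+ and 5 in WT. Rab8a and Rab8b, which act in exocytic delivery to the cell surface, differed in their regions. Rab8a (chr8:72161200-72181366) had 0 Nan/+ regions and 1 WT region of 1164 bp over its start. Rab8b is described below. Rab10, which carries glucose transporters to the surface in adipocytes (chr12:3247428-3309969), had 5 Nan/+ and 6 WT regions and 1 shared pair, centred 18113 bp into the gene in Nan/+ and 18031 bp in WT. Its start lay under a WT region of 1222 bp, while the nearest Nan/+ region, of 176 bp, was centred 1200 bp inside the gene. Rab3d shared a start region of 467 bp in Nan/+ and 649 bp in WT. Rab13, a Rab of epithelial junctions, had 1 Nan/+ region of 407 bp centred 15 bp from a start and 0 in WT. Rab26 had 3 Nan/+ and 0 WT regions, and Rab27b, a 163 kb gene of secretory granules, had 4 Nan/+ regions, 3 of them of 176 bp, and 0 in WT. Rab37 had 1 region per list, 176 bp in Nan/+ and 468 bp in WT, at different places, and the WT region lay nearer to Slc9a3r1. Rab3a, Rab3b and Rab3c, known from synaptic vesicles, and Rab27a and Rab44 had none in either list, although Rab3c is the longest of the family at 227 kb.

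The remaining genes comprise ciliary Rabs and Rab40 proteins, which carry a motif that binds ubiquitin ligases. Rab40c (chr17:25882114-25919714) had 5 Nan/+ and 2 WT regions. At its start a Nan/+ region of 1006 bp, the widest Nan/+ region at any Rab gene, and a WT region of 925 bp overlapped by 904 bp. Rab40b had a WT region of 317 bp at its start and a shared pair in the flank, 455 bp in Nan/+ and 1363 bp in WT, that lies nearer to Wdr45b. Rab28 had 0 Nan/+ regions and a WT region of 726 bp at its start. Rab23, a negative regulator of Hedgehog signalling, had 1 Nan/+ region beyond its far end and 0 in WT. The 1 Nan/+ and 2 WT regions of Rab34 lay nearer to Rpl23a, and Rab36 had none.

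Rab8b had more regions than any other member. The gene spans 76.1 kb on the minus strand (chr9:66843609-66919705) and had 16 Nan/+ regions, all centred in the gene or at its start, against 6 WT regions. Of 1382 other genes of like length, 7 had as many Nan/+ regions or more, the median being 1 and the highest 18, and 20 had 6 or more WT regions, with a median of 0. Of the Nan/+ regions 8 had the minimum width of 176 bp, which left 8 wider ones against the 6 WT regions. The widest Nan/+ region, 616 bp, was centred 70614 bp into the gene and overlapped no WT region. Of the WT regions 5 lay in the gene or at its start and 1 in the flank near Aph1c. Both lists had a region over the start, 345 bp in Nan/+ and 901 bp in WT with centres 19 and 42 bp before it. The other shared pair was centred 24555 bp inside the gene in Nan/+, with a width of 337 bp, and 24502 bp inside in WT, with a width of 534 bp. The other 14 Nan/+ and 4 WT regions were not shared.

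**Figure D4:**
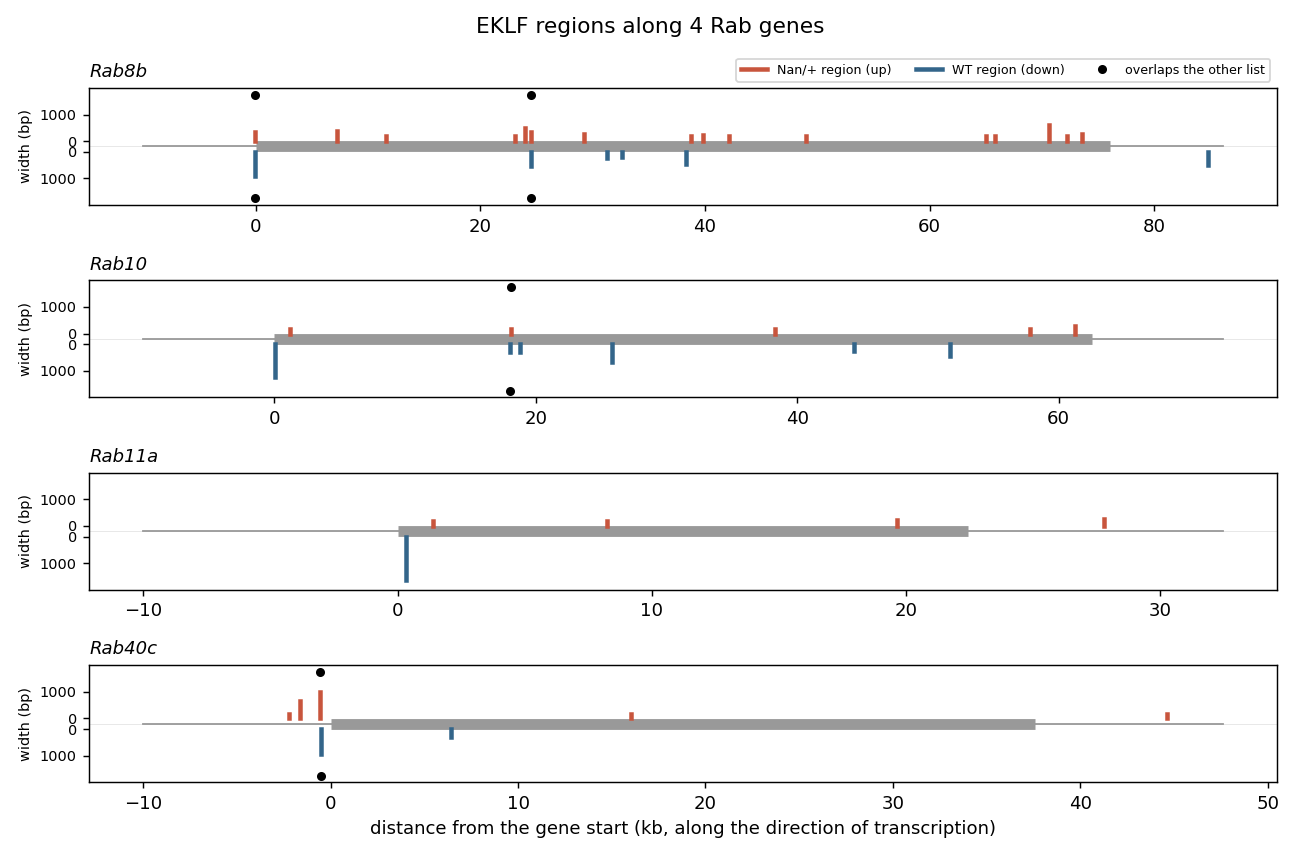
EKLF regions along Rab8b, Rab10, Rab11a and Rab40c, by distance of the region's centre from the gene start (kb), with line height giving region width (bp), Nan/+ upward and WT downward, the gene body as a grey bar and dots marking regions that overlap the other list. Rab8b carries 16 Nan/+ and 6 WT regions with 2 shared, and Rab11a 4 and 1 with 0 shared.

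Over the family 85 Nan/+ regions and 64 WT regions were assigned to Rab genes. Regions that overlapped the other list by at least 1 bp numbered 20 in each. That is 23.5% of the Nan/+ regions (15.0 to 34.0), where 20.1% of region assignments to other genes were shared, and 31.2% of the WT regions (20.2 to 44.1), where 27.6% were. Both values for other genes lay within the intervals. The shared pairs belonged to 18 genes, 14 of them with the pair within 1 kb of an end of the Rab gene. The other 7 genes with regions in both lists, which include Rab7, Rab11a, Rab14 and Rab5c, had no shared region. This split of 18 and 7 genes has no value for other genes beside it, so it cannot be read as a trait of the family. In 16 of the 20 pairs the WT region was the wider, or 80.0%, against 67.7% of all 2318 overlapping pairs of the lists. The median width was 421 bp in Nan/+ and 634.5 bp in WT, and the centres lay a median of 59 bp apart. The peak size and the minimum distance set for calling were larger in Nan/+ than in WT. Their part in the widths, in the numbers of regions and in the overlaps was not tested.

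Placed within 1 kb of an end of the Rab gene were 22 Nan/+ regions, 25.9% (17.0 to 36.5), and 27 WT regions, 42.2% (29.9 to 55.2). For other genes these shares were 22.6% in Nan/+ and 40.0% in WT, inside both intervals. A further 43 Nan/+ and 17 WT regions lay deeper inside Rab genes, and 20 in each list lay in the flanks. Regions outside the shared pairs were at gene ends for 8 of 65 in Nan/+, or 12.3%, and for 13 of 44 in WT, or 29.5%. These 2 shares have no value for other genes beside them. Regions at the minimum width of 176 bp made up 37 of the 85 Nan/+ regions, 43.5%, against 54.5% of the whole Nan/+ list, and 2 of them were shared, at Rab10 and Rab30. Neighbouring genes share these assignments. By centre the Rab gene was the nearest protein-coding gene for 66 of 85 Nan/+ regions and 44 of 64 WT regions. With each region given to its nearest gene alone, 28 Rab genes had a region in Nan/+ and 25 in WT, beside 29.4% and 24.8% of all genes.

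The 17 genes without a region in either list were Rab3a, Rab3b, Rab3c, Rab6b, Rab9b, Rab12, Rab17, Rab20, Rab27a, Rab29, Rab32, Rab36, Rab38, Rab39, Rab39b, Rab42 and Rab44. Their lengths had a median of 22.1 kb, against 23.3 kb for the genes with regions in both lists. Expression of the genes was not measured here.

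Proteins that load, activate, inactivate and read out Rabs were examined through 129 genes in 5 lists, all of which matched the gene table. Regions were found at 85 of them in Nan/+ and 76 in WT. These genes were longer than the Rab genes, with a median of 47.95 kb, and other genes of like length would give 59.9 in Nan/+ and 49.1 in WT. The counts per list stand beside 37.5% of all protein-coding genes in Nan/+ and 33.5% in WT. Median length ran from 6.63 kb in the delivery and prenylation list to 67.6 kb among GTPase-activating proteins. Genes of like length were not computed per list, so the lists cannot be ranked against each other. Of 36 exchange factors, which load GTP, 27 had a Nan/+ region and 21 a WT region. Dennd1a, an exchange factor for Rab35 and a gene of 488 kb, had 30 Nan/+ and 4 WT regions, Dennd2c had 7 and 6, and St5 also had 7 and 6. Of 31 GTPase-activating proteins, which switch Rabs off, 24 had a Nan/+ region and 20 a WT region. Rabgap1l, a gene of 574 kb, had 11 Nan/+ and 14 WT regions, Evi5 had 9 and 3, and Tbc1d14 had 7 and 3.

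Of 17 exocyst and retromer genes, which serve delivery and retrieval of receptors, 10 had a Nan/+ region and 14 a WT region. Exoc6, the exocyst gene whose loss causes the anaemia of the hemoglobin-deficit mouse, had 6 Nan/+ and 2 WT regions, 1 of them shared. Snx3, a sorting nexin of transferrin receptor recycling, had 4 and 3, with 0 shared, and Exoc4 had 12 and 1. Of 35 effectors 19 had a Nan/+ region and 15 a WT region, with Rab11fip4 at 5 and 1, Uso1 at 2 and 3, and Eea1, the Rab5 tether of early endosomes, at 3 and 1. Of 10 delivery and prenylation factors 5 had a Nan/+ region and 6 a WT region. Rabggtb, a subunit of the enzyme that attaches the lipid anchor of Rabs, had 1 in each list and they overlapped, Arl6ip5 had 2 in each and Praf2 had 1 in Nan/+ and 2 in WT. Chm, Gdi2 and Rabac1 had none.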

How the data were processed

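Per the file headers, the authors called regions with HOMER on mm10, with 3 ChIP libraries of each genotype set against 3 input places filled by 2 distinct libraries, at a q of 0.01, a fold of 4 and a DESeq2 step (false discovery rate 0.01, log2 fold 2). Peak size and minimum distance were 175 and 300 bp for Nan/+ and 125 and 250 bp for WT. Each deposited row carries a position and a score of 1, so the score was not used. Other tools in the submitters' processing notes, without stated roles, are deepTools 3.5, SAMtools 1.1, Bowtie2 2.1 and bcl2fastq 2.17.

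Computed here with Python 3.11.15, pandas 2.3.3 and SciPy 1.17.1 were the assignment of region centres to genes, overlaps, shares and motif counts, checked on simulated data. Of 21900 protein-coding genes, 108 on alternate loci and 269 on Y, mitochondrial or unplaced sequence were left out. Roles and pathway lists were assigned from general knowledge. The members and lists were chosen with earlier results of these data known, and the comparison by CpG number was added after the values were seen. Genes with full values were those with a shared region, the most regions or the largest excess in a list, a region of 1 list alone at a gene end and, per pathway list, the 3 with the most regions. Others named were chosen after their values were seen. Other assays of the 43 samples were not analysed here.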

Additional observations from a re-analysis of the deposited data

How the results depend on the processing

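Of 56 alternative values, 50 were classed as the same as the value reported, but that class was broad. It includes 37 Rab genes in both lists with flanks of 50 kb, against 25, beside 42.5% of all genes. It also includes 58 pathway genes in Nan/+ with wider Nan/+ regions alone, against 85. The Nan/+ share of all genes fell from 37.5% to 25.1% in that setting. No paired analysis was possible because the replicates of a genotype were merged before regions were called, which also prevented leaving out replicates. With gene bodies alone, a region was found at 23 of the 59 Rab genes in Nan/+, 17 in WT and 11 in both. The shares of all genes were then 23.5%, 18.1% and 10.5%. With Nan/+ regions wider than the minimum alone, 37.5% of Nan/+ regions were shared and 39.6% were at gene ends. With gene ends taken to 2 kb, 38.8% of Nan/+ regions were at gene ends. No shares for other genes in these settings stand beside the values, so the rises cannot be read as particular to Rab genes. The larger count of genes in 1 list alone depended on the narrow regions: with wider Nan/+ regions alone it was 8 for Nan/+ and 10 for WT, beside 6.98% and 15.4% of all genes. With equal list lengths by width, ties drawn at random, it was 8 for each, beside 8.97% and 13.6% of all genes, so the order of the all-gene shares turned to WT in both settings. The excess over genes of like length was recomputed with length within 10%, with 10 length strata and with flanks of 5 kb. With the main value included, it ranged from 17.7 to 20.8 percentage points in Nan/+, from 16.7 to 17.0 in WT and from 16.0 to 19.8 in both. The other settings were not set beside genes of like length. With flanks of 50 kb, 45 Rab genes were reached in Nan/+ and 43 in WT, beside 57.3% and 50.0% of all genes. The deposited rows give no tag counts, so how near an uncalled site came to the calling threshold was not assessed.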
